A study of Homo sapiens with 9 samples.

Results

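Histones are the proteins around which DNA is wound, and the human genome holds many copies of their genes. The genes described here are those whose probe sets carry a histone symbol, by a rule on the symbol's prefix that used no measured value. On the array used, 82 single-gene probe sets out of 54675 matched a prefix. Of these, 3 were annotated as pseudogenes and 1 as an antisense RNA and were set apart, which left 78 probe sets of 54 histone genes, out of 19775 genes with a single-gene probe set. By class, 46 probe sets of 41 genes belong to replication-dependent histones, 24 probe sets of 8 genes to histone variants and 8 probe sets of 5 genes to germline histones. Another 28 probe sets assigned to several genes, at least 1 of them a histone, were left out.

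The study measured gene expression in HSF-6, an established human embryonic stem cell line, with a 1-colour microarray. It held 3 groups of 3 arrays each: HSF-6 (8) cells left untreated, the same cells given butyrate with DZNep, and HSF-6 (S9) cells given the same compounds. Cultures were kept over 11 passages with or without both compounds, with 6 days of growth. Butyrate inhibits histone deacetylases, and DZNep inhibits S-adenosylhomocysteine hydrolase and thereby lowers the activity of methyltransferases such as EZH2. Concentrations are not given in the labels. The labels do not say how the S9 cells differ from the (8) cells, and untreated HSF-6 (S9) cells were not analysed here, so that subline and treatment cannot be told apart between treated HSF-6 (S9) and untreated HSF-6 (8). Nothing in the labels ties arrays to separate cultures, so the p-values below measure only the spread between arrays, which may be technical.

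Replication-dependent histone genes are packed in clusters, are transcribed in S phase and supply the bulk of new chromatin. Their messenger RNAs end in a stem loop that is bound by SLBP, in place of a poly(A) tail. The labelling kit named in the labels primes on poly(A), so that the signal of a replication-dependent gene mostly reflects its polyadenylated transcripts. Histone variants are encoded by single genes, most of them outside these rules. Most are made as polyadenylated messages through the cell cycle and placed by dedicated chaperones. Members include macroH2A, which carries a large extra domain and is associated with repressed chromatin, H2A.Z at promoters, H2A.X at DNA breaks and H3.3 at active genes. Many replication-dependent genes encode nearly identical proteins, and probe sets whose names end in _x_at or _s_at can bind transcripts of several of them. Signals of different probe sets are therefore not compared as levels of their genes, and mean signals were ranked only to choose what to describe.

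The promoters of both classes differ in composition, and 3 are shown because the results below turn on their genes. RefSeq promoter windows of 300 bases (250 before and 50 after each start, build GRCh38.p14) matched 51 of the 54 genes with 59 windows, and H2BC12L, H3C11 and H4C1 had none in the table used. Of the windows, 8 overlapped a window of another histone gene. Windows of the same gene were counted separately even where they overlap, as the 2 of H2BC12 do. The CCAAT box (the letters CCAAT) was searched on both strands, as were the TATA box, here TATAAA, and the octamer bound by OCT1, here ATTTGCAT, and no motif contains another. The CCAAT box was found in 87.8% of 41 replication-dependent windows, 66.7% of 12 variant windows and 34.6% of all 35116 windows. The TATA box was found in 68.3%, 25% and 11.5% of these, and the octamer in 39%, 0% and 1.77%. Among replication-dependent families the octamer was in 10 of 14 H2B windows (of 12 genes) and 6 of 8 H2A windows, and in 0 of the 5 H1, 7 H3 and 7 H4 windows. Median GC content was 42.3% in replication-dependent windows, 64.7% in variant windows and 58.7% in all windows. A match describes letters and is not a measured site. The 250 bases before the start are printed 5′ to 3′ on the gene's strand. In both macroH2A promoters capitals mark CG dinucleotides, of which MACROH2A2 (chr10:70052596-70052845, plus strand) has 19 and MACROH2A1 (chr5:135399232-135399481, minus strand, 1 of its 2 windows) has 33. The other MACROH2A1 window, not printed, has 9, so that the order of both genes depends on the window. In the H2BC12 promoter (chr6:27146859-27147108, minus strand, 1 of its 2 windows) capitals mark 6 matches to the CCAAT box, 3 to the TATA box and 1 to the octamer on either strand, with a pair of TATA box matches overlapping on opposite strands.
MACROH2A2: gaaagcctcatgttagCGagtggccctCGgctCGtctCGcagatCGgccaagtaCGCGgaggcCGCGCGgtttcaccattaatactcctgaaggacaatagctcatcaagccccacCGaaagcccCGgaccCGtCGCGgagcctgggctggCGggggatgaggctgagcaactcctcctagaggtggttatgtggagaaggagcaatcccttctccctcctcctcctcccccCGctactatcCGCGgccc
MACROH2A1: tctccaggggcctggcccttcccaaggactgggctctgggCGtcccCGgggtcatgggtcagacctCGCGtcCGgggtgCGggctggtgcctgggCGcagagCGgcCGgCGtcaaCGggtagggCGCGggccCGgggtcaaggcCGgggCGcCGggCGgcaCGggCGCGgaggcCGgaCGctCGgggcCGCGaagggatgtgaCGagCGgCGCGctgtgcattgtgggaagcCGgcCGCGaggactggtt
H2BC12: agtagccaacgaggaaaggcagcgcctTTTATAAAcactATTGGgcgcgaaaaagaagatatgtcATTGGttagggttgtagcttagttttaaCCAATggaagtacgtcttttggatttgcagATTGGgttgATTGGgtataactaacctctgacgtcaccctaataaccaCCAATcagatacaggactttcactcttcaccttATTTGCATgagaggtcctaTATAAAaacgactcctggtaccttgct

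The deposited values are MAS5 signals on a linear scale, with array medians between 64.8 and 82.9. Of 15 pluripotency markers, 14 had a single-gene probe set, and each of these was above the array median on at least 1 array. The summed signal of these 14 was 168331 to 220290 in untreated arrays, 161492 to 165668 in treated HSF-6 (8) and 143222 to 232566 in treated HSF-6 (S9). The third arrays of the groups stood apart. Deviations from the group means over the 29325 probe sets tested correlated between the third arrays of different groups with r of 0.41 to 0.59. Between the third array of a group and the first or second array of another r was -0.48 to -0.22, where deviations within a group sum to 0. Marker sums of other cell types also differed between arrays. The summed signal of 12 of 14 endoderm markers was 18013 on the third array of treated HSF-6 (8), against 2057 and 2639 on its first and second, 2093 to 2695 in treated HSF-6 (S9) and 1150 to 1730 in untreated cells. The summed signal of 15 stromal markers was 67354 on the third array of that group, against 34431 and 36272 on its other arrays. Of the stromal markers, FAP was above the array median on none of the 9 arrays. For several histone genes, values without the third arrays are given beside the results.

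MACROH2A2, which encodes macroH2A2, was the 1 histone gene that passed the test, and it was higher in both treated groups. Its probe set 218445_at read 317, 479 and 222 on the untreated HSF-6 (8) arrays, 1274, 1189.7 and 1097 on the treated HSF-6 (8) arrays, and 1382, 1349.7 and 1782 on the treated HSF-6 (S9) arrays. Every treated array was above every untreated array, and the lowest treated value was more than 2 times the highest untreated one. Group means were 339 ± 130 in untreated cells, 1187 ± 88.6 in treated HSF-6 (8) and 1505 ± 240 in treated HSF-6 (S9) (SD, n = 3).

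Differences were tested with limma on log2(signal + 16) over the 29325 probe sets that were above their array's median on at least 3 of 9 arrays. A probe set was called when its Benjamini-Hochberg adjusted p was under 0.05 and its change at least 2-fold. Between treated and untreated HSF-6 (8) cells, MACROH2A2 rose by 1.82 ± 0.27 (SE) on this log2 scale, a ratio of means of 3.5, with an adjusted p of 0.0321 in limma. That made 1 of the 37 histone probe sets tested called higher and 0 lower, against 0.273% of all probe sets called higher and 0.0273% called lower. Between treated HSF-6 (S9) and untreated HSF-6 (8) it rose by 2.15 ± 0.27, a ratio of means of 4.43, with an adjusted p of 0.0122 in limma. Here too 1 of 37 was called higher and 0 lower, against 0.314% and 0.075% of all probe sets. Both comparisons use the same untreated arrays. In RNA from a whole culture, more cells that express a gene and more transcript per cell cannot be told apart.

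Between the treated groups, MACROH2A2 was 0.33 ± 0.27 higher in HSF-6 (S9) on the log2 scale, with an adjusted p of 1.0 in limma, and the ranges of the 2 groups did not overlap. In that comparison 0 of 37 histone probe sets were called in either direction by limma, and 0% of all probe sets were. At an unadjusted p under 0.05 the counts were 0 of the 37 and 712 of 29325, or 2.43%.

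The call of MACROH2A2 was close to the threshold. For treated against untreated HSF-6 (8), the adjusted p was 0.0699 without the filter on low values and 0.1 with only these 6 arrays in the fit. On the first and second arrays alone the difference was 1.62 with an adjusted p of 0.0919, and it was 1.77 with 0.0816 for treated HSF-6 (S9) against untreated cells. Leaving out single arrays in turn gave differences of 1.56 to 2.09, and the call was kept in 2 of the 9 fits, those that left out the second untreated array or the last HSF-6 (S9) array. The adjusted p was 0.121 without the first untreated array (difference 1.81), 0.0705 without the third untreated array (1.56), and 0.135, 0.143 and 0.0791 without the first, the second and the third treated HSF-6 (8) arrays (1.77, 1.82 and 1.88). It was 0.0732 and 0.0623 without the first and second treated HSF-6 (S9) arrays, which take part only through the shared spread. For treated HSF-6 (S9) against untreated cells the call was kept in 7 of 9 such fits. It was lost without the first untreated array (2.14, adjusted p 0.0607) and when the third array of HSF-6 (S9) was left out (2.02, adjusted p 0.0589). With the replicate mark of the titles as a block, the number of all called probe sets went from 88 to 148 (0.3% to 0.505%) and from 114 to 233 (0.389% to 0.795%), and MACROH2A2 stayed called in both.

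Marker sums of other cell types moved with treatment beside MACROH2A2. The summed signal of 8 trophoblast markers was 669.9 to 1043 in untreated arrays, 1589.7 to 2378 in treated HSF-6 (8) and 1637 to 2597 in treated HSF-6 (S9). For 10 neuroectoderm markers the sums were 25459 to 29676, 30625 to 34915 and 30736 to 41426. CDX2, ELF5 and KRT23 of the trophoblast list and NEUROG2 of the neuroectoderm list were above the array median on none of the 9 arrays. Of these lists 5 and 7 genes were tested, and GATA3 was the 1 trophoblast marker called. The part of these marker genes in the MACROH2A2 result was not tested.

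**Figure D1:**
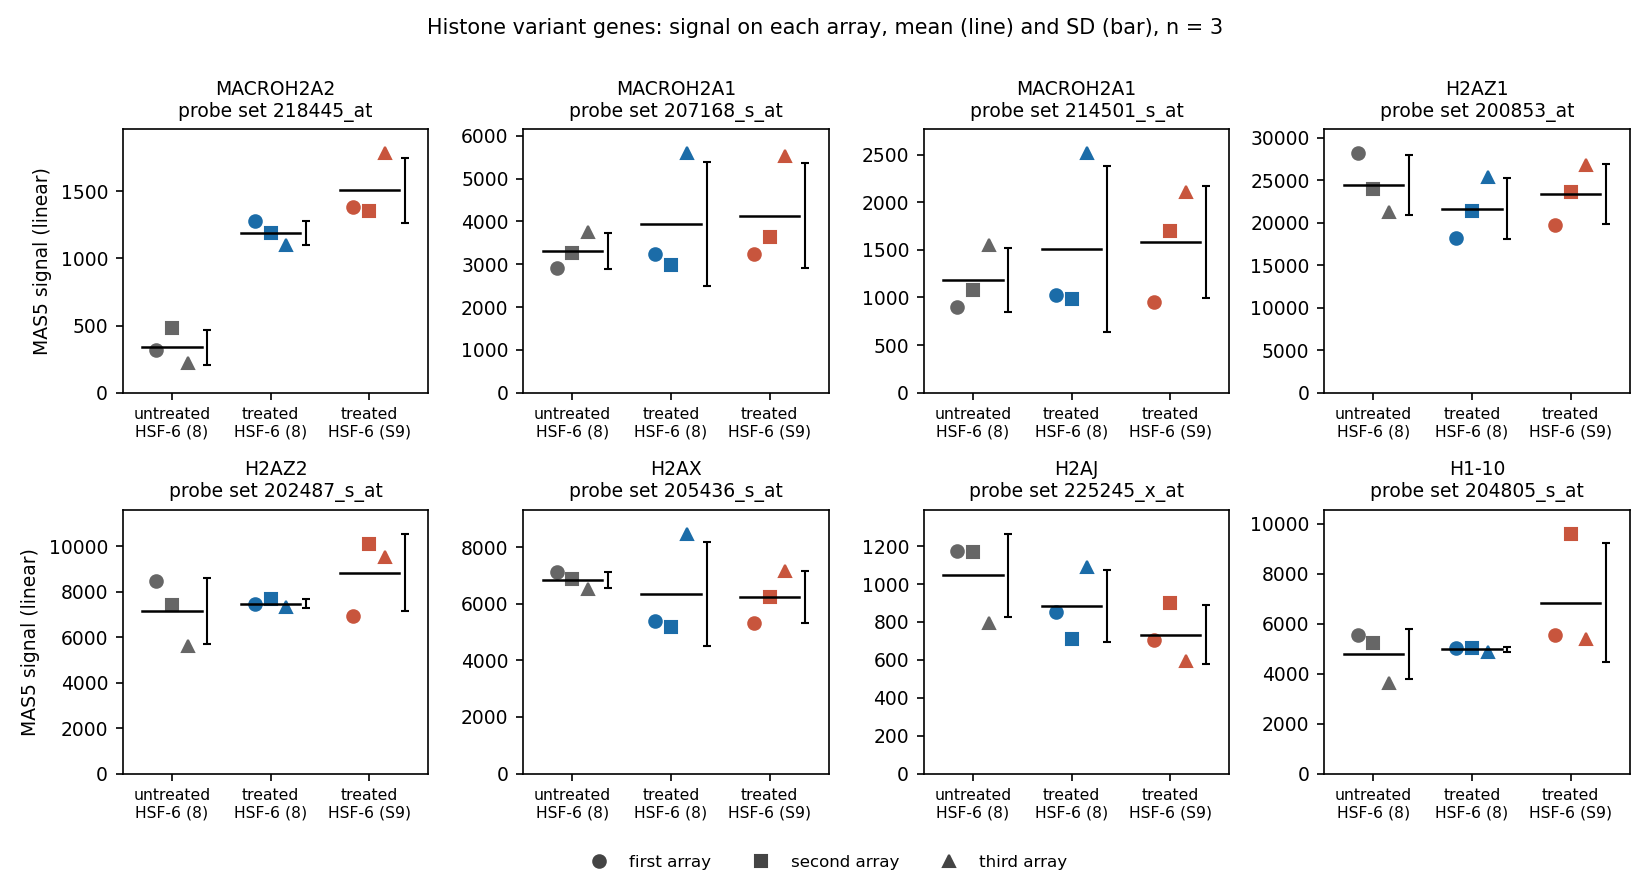
MAS5 signal (linear axis from 0) of 8 probe sets of histone variant genes on each of the 9 arrays, by group; circles, squares and triangles are the first, the second and the third arrays, lines are means and bars are SD (n = 3). All 6 treated arrays lie above the 3 untreated arrays for MACROH2A2, while the groups overlap for MACROH2A1, and the third array is the highest of its group in both MACROH2A1 panels.

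MACROH2A1, the gene of the more widely expressed macroH2A1, did not pass the test with any probe set. Its probe set 207168_s_at read 2909, 3265 and 3749 in untreated cells, 3234, 2982 and 5592 in treated HSF-6 (8), and 3236, 3629.8 and 5537 in treated HSF-6 (S9). The third array was the highest in each group, and the groups overlapped. The difference between treated and untreated HSF-6 (8) was 0.20 ± 0.29 on the log2 scale (adjusted p 0.999 in limma). Over the 5 MACROH2A1 probe sets tested, this difference ranged from -0.02 to 0.47, and 2 further ones did not pass the filter. The third array was the highest of its group for all 5 in all 3 groups, by a median of 0.49 in untreated cells, 0.86 in treated HSF-6 (8) and 0.72 in treated HSF-6 (S9), measured from the mean of the other arrays of the group on the log2 scale. For MACROH2A2, by contrast, the third array was the lowest of its group in untreated and in treated HSF-6 (8) cells and the highest in treated HSF-6 (S9).

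The genes of H2A.Z did not pass the test with any probe set. H2AZ1, which encodes the main H2A.Z, read 28171, 23928 and 21223 in untreated cells with probe set 200853_at, 18201, 21348 and 25365 in treated HSF-6 (8), and 19769, 23612 and 26769 in treated HSF-6 (S9). The groups overlapped, and the difference between treated and untreated HSF-6 (8) was -0.18 ± 0.21 on the log2 scale. Its second probe set gave -0.13 ± 0.19. The 4 probe sets of H2AZ2, which encodes a second H2A.Z protein, gave differences of 0.08 to 0.34 in that comparison and 0.10 to 0.33 between treated HSF-6 (S9) and untreated cells. The largest of these, 0.34 ± 0.22 with probe set 212206_s_at, had an adjusted p of 0.883 in limma, and its signals overlapped between groups, at 758, 707 and 913 in untreated cells and 913, 866 and 1274 in treated HSF-6 (8).

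H2AX, whose protein is phosphorylated around DNA breaks, read 7109, 6878 and 6531 in untreated cells with probe set 205436_s_at. After treatment it read 5399, 5175 and 8467 in HSF-6 (8) and 5309, 6237 and 7159 in HSF-6 (S9). In both treated groups the first and second arrays lay below all untreated ones and the third lay above them. The 3 H2AX probe sets tested differed by -0.31 to -0.09 between treated and untreated HSF-6 (8), and a further one did not pass the filter. For probe set 212525_s_at all treated HSF-6 (S9) arrays, at 566 to 606, lay below all untreated arrays, at 647 to 844. That difference was -0.28 ± 0.23 on the log2 scale, with an adjusted p of 0.725 in limma.

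H2AJ encodes an H2A variant known to accumulate in senescent cells. With probe set 225245_x_at it read 1173, 1172 and 793 in untreated cells, 851, 713 and 1092 in treated HSF-6 (8), and 703, 902 and 594 in treated HSF-6 (S9). Its difference between treated HSF-6 (S9) and untreated cells was -0.50 ± 0.25 on the log2 scale (adjusted p 0.506 in limma), and -0.44 ± 0.23 with probe set 224301_x_at. Its other tested probe set, 228213_at, gave 0.05 ± 0.25, so that the probe sets of this gene disagreed in sign. The values of the first 2 probe sets overlapped between groups.

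H1-10 encodes a linker histone made outside S phase, and it did not pass the test. Its signal was 5523, 5203 and 3622 in untreated cells, 5024, 5009.8 and 4869 in treated HSF-6 (8), and 5529.9, 9586 and 5375 in treated HSF-6 (S9). All HSF-6 (S9) arrays lay above all treated HSF-6 (8) arrays, the second of them by far. The difference between treated groups was 0.40 ± 0.26 on the log2 scale (adjusted p 1.0 in limma), and 0.13 without that second array. Among the 37 tested histone probe sets, H1-10 and MACROH2A2 were the 2 whose treated groups did not overlap, both higher in HSF-6 (S9), or 5.41% against 2.41% of all probe sets, and 0 had them lower, against 4.05%. H3-3A, 1 of the genes of H3.3, read 288, 243 and 498 in untreated cells, 323, 264 and 485 in treated HSF-6 (8), and 292, 352 and 676 in treated HSF-6 (S9). The third array was again the highest in each group, and the groups overlapped. H3-3B, the second H3.3 gene, had no single-gene probe set in the annotation used and was not analysed here.

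Across all histone genes, few probe sets separated the groups. Of the 37 tested, 4 had treated HSF-6 (8) arrays all above the untreated arrays and 0 had them all below, or 10.8% and 0%, against 8.83% and 6.04% of all probe sets. For treated HSF-6 (S9) against untreated cells these counts were 4 and 2, or 10.8% and 5.41%, against 9.07% and 8.35%. These shares are near the background. H2AC4, 1 of the first 4, passed the filter only through treated HSF-6 (8), where it was high. The median difference between treated and untreated HSF-6 (8) was 0.08 on the log2 scale over the 37, 0.21 over the 17 replication-dependent and 0.08 over the 20 variant probe sets, against 0.02 over all probe sets. On the first and second arrays alone, the replication-dependent median was -0.14 and the variant median -0.03. At an unadjusted p under 0.05 there were 4 of the 37 in the first of these comparisons and 3 in the second, or 10.8% and 8.11%, against 7.52% and 11.3% of all probe sets.

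The same counts were made over all 78 histone probe sets without the filter. Between treated and untreated HSF-6 (8), 7 had an unadjusted p under 0.05 and were higher and 1 was lower, or 8.97% and 1.28%, against 4.06% and 2.23% of all probe sets. The same 7 and 1 had groups that did not overlap, against 7.34% and 5.3%. For treated HSF-6 (S9) against untreated cells, 4 were higher and 4 lower at that p, or 5.13% each, against 4.28% and 4.25%. Groups did not overlap for 9 higher and 7 lower, or 11.5% and 8.97%, against 6.84% and 7.21%. Between the treated groups, 0 were higher and 1 lower in HSF-6 (S9) at that p, against 1.06% and 2.61%, and groups did not overlap for 2 higher and 3 lower, or 2.56% and 3.85%, against 2.89% and 5.04%. In this fit MACROH2A2 was called by limma for treated HSF-6 (S9) against untreated cells and was the 1 member called in any comparison, against 0.108% of all probe sets called there, 0.097% for treated against untreated HSF-6 (8) and 0% between the treated groups.

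**Figure D2:**
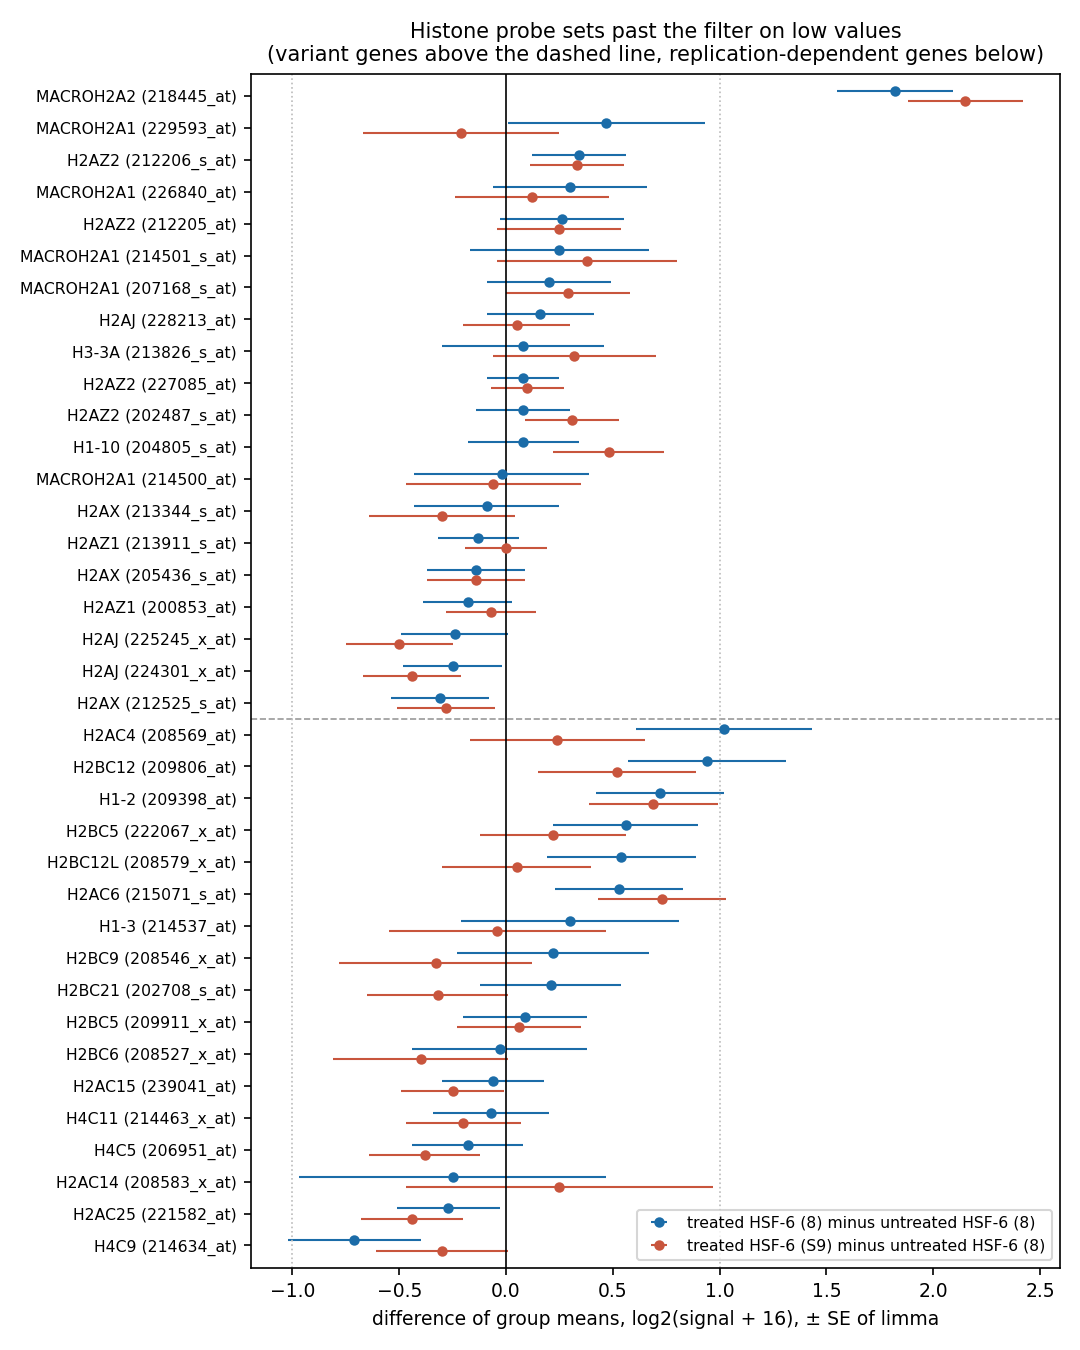
Differences of group means on the log2(signal + 16) scale for the 37 histone probe sets past the filter, with the SE of limma; blue is treated minus untreated HSF-6 (8), red is HSF-6 (S9) after treatment minus untreated HSF-6 (8), and dotted lines mark 2-fold. MACROH2A2 lies at 1.82 and 2.15, apart from every other probe set, the highest of which is H2AC4 at 1.02.

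Most probe sets of replication-dependent genes did not pass the filter. Of their 46 probe sets, 17 of 16 genes passed the filter, by family 2 of 5 for H1, 5 of 10 for H2A, 7 of 14 for H2B, 0 of 8 for H3 and 3 of 9 for H4. None of the 17 was called in any comparison by limma. At an unadjusted p under 0.05, 3 of them were higher and 0 lower in treated than in untreated HSF-6 (8), and 2 were higher and 0 lower in treated HSF-6 (S9) than in untreated cells. These are 17.6% and 0% against 5.11% and 2.41% of all probe sets, and 11.8% and 0% against 6% and 5.27%. Between the treated groups there were 0. Of the 3 higher in treated HSF-6 (8), H2AC4 passed the filter only through that group, where it was high. Over all 46, past the filter or not, 31 were higher in treated than in untreated HSF-6 (8) by any amount, with a median difference of 0.18 on the log2 scale, against 28553 of all 54613 probe sets with a median of 0.02. In the same way 27 were higher in treated HSF-6 (S9) than in untreated cells, with a median of 0.06, against 25965 of all probe sets with a median of -0.02. Of the 17 past the filter, 10 were higher in treated HSF-6 (8), and 8 on the first and second arrays alone, with medians of 0.21 and -0.14. For treated HSF-6 (S9) these were 8 and 6, with medians of -0.04 and -0.17.

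H2B genes encode a core partner of H2A, and H2BC12 had the largest difference from untreated cells among their 7 probe sets past the filter. It read 789, 756 and 699.7 in untreated cells, 1025, 1132 and 2623 in treated HSF-6 (8), and 967, 815 and 1589 in treated HSF-6 (S9). All treated arrays lay above all untreated arrays, with the third treated arrays above the other treated ones. The means were 748 ± 45.1, 1593 ± 893 and 1124 ± 410 (SD, n = 3). The difference between treated and untreated HSF-6 (8) was 0.94 ± 0.37 on the log2 scale, with an adjusted p of 0.569 in limma, and 0.47 on the first and second arrays alone.

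The other H2B probe sets tested overlapped between groups. H2BC6 read 330.1, 277 and 394 in untreated cells, 208, 227 and 700.1 in treated HSF-6 (8), and 257, 195 and 299 in treated HSF-6 (S9). Its first and second treated HSF-6 (8) arrays were below all untreated arrays and the third was above them, and the difference of the means on the log2 scale was -0.03 ± 0.41. H2BC12L read 398, 287 and 395 in untreated cells and 402, 383 and 941 in treated HSF-6 (8), a difference of 0.54 ± 0.35, with the third treated array above all others. On the first and second arrays alone this difference was 0.21, and that of H2BC6 was -0.45. H2BC5 differed by 0.56 ± 0.34 with probe set 222067_x_at and by 0.09 ± 0.29 with probe set 209911_x_at, H2BC9 by 0.22 ± 0.45 and H2BC21 by 0.21 ± 0.33. Without the third arrays these 4 differences were 0.21, -0.22, 0.10 and -0.14, so that H2BC5 with the second of its probe sets and H2BC21 changed sign. In the comparison of treated HSF-6 (S9) with treated HSF-6 (8), all 7 H2B differences were below 0, from -0.55 for H2BC9 to -0.04 for H2BC5, with a median of -0.42. On the first and second arrays alone, 2 of the 7 were above 0 and the median was -0.27. None had an unadjusted p under 0.05 there.

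H1-2 encodes a linker histone, the class that binds where DNA enters and leaves the nucleosome. It read 147, 138 and 113 in untreated cells, 168, 181 and 382 in treated HSF-6 (8), and 186, 260.4 and 229 in treated HSF-6 (S9). All treated arrays were above all untreated ones. The differences from untreated cells were 0.72 ± 0.30 (adjusted p 0.604 in limma) and 0.69 ± 0.30 (adjusted p 0.43). On the first and second arrays alone the former was 0.26. H1-3 differed by 0.30 ± 0.51 and overlapped between groups.

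Among H2A genes, H2AC4 had the largest difference, with 73.2, 63.9 and 28.4 in untreated cells and 82.5, 128 and 168 in treated HSF-6 (8). The groups did not overlap, and the difference was 1.02 ± 0.41 on the log2 scale (adjusted p 0.583 in limma). On the first and second arrays alone it was 0.50. In treated HSF-6 (S9) it read 125, 38.9 and 51.2, within the untreated range on 2 arrays. Outside treated HSF-6 (8), H2AC4 was above the array median on too few arrays to pass the filter. H2AC6 read 373, 339 and 175 in untreated cells, 518, 452 and 303 in treated HSF-6 (8), and 504, 431 and 509 in treated HSF-6 (S9). Its HSF-6 (S9) arrays were all above the untreated arrays, with a difference of 0.73 ± 0.30 (adjusted p 0.4 in limma), and of 0.37 on the first and second arrays alone. It was also the 1 H2A, H2B or H4 gene tested that was lowest on the third array of treated HSF-6 (8). H2AC25 read 329, 303 and 268 in untreated cells and 216, 201 and 234 in treated HSF-6 (S9) with probe set 221582_at. These ranges did not overlap, at a difference of -0.44 ± 0.24 (adjusted p 0.555 in limma). Its second probe set, 231681_x_at, did not pass the filter and went the other way, with 47.0, 14.9 and 31.5 against 49.2, 66.4 and 56.8. H2AC14 scattered from 23.7 to 165 in untreated cells, and its difference was -0.25 ± 0.72. H2AC15 differed by -0.06 ± 0.24.

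The 3 H4 probe sets past the filter did not pass the test in any comparison. H4C9 read 157, 97.7 and 65.6 in untreated cells and 37.2, 68.9 and 65.4 in treated HSF-6 (8), with overlap and a difference of -0.71 ± 0.31 on the log2 scale (adjusted p 0.665 in limma), and of -1.06 on the first and second arrays alone. H4C5 differed by -0.18 ± 0.26 and H4C11 by -0.07 ± 0.27. Between treated HSF-6 (S9) and untreated cells, the 3 probe sets differed by -0.30 ± 0.31 (H4C9), -0.38 ± 0.26 (H4C5) and -0.20 ± 0.27 (H4C11).

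Between the treated groups, replication-dependent genes differed in both directions and none passed the test. Lower in HSF-6 (S9) were H2AC4 by -0.78 ± 0.41, H2BC9 by -0.55 ± 0.45 and H2BC21 by -0.54 ± 0.33 on the log2 scale. Higher in HSF-6 (S9) were H2AC14 by 0.49 ± 0.72, H4C9 by 0.40 ± 0.31 and H2AC6 by 0.20 ± 0.30. For all 6 the ranges of the treated groups overlapped.

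**Figure D3:**
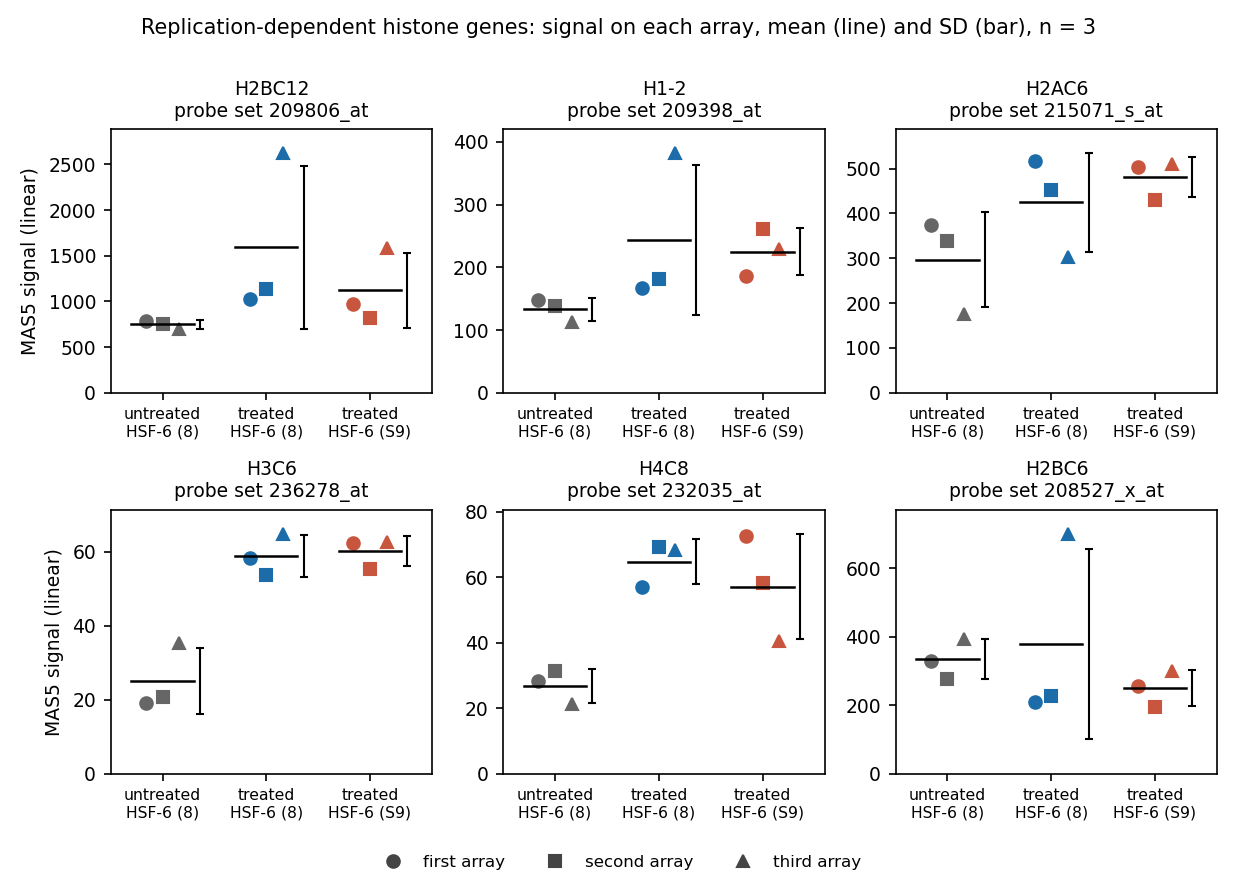
MAS5 signal (linear axis from 0) of 6 probe sets of replication-dependent histone genes on each of the 9 arrays, by group; symbols are the first, the second and the third arrays, lines are means and bars are SD (n = 3). The third array of treated HSF-6 (8) stands out for H2BC12 at 2623 and for H2BC6 at 700.1, whereas all 3 arrays of that group stand above untreated cells for H3C6 and H4C8, whose signals are low.

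Among probe sets that failed the filter on low values, a few were singled out after their values were seen. H3C6, which encodes a replication-dependent H3, read 19.1, 20.6 and 35.4 in untreated cells with probe set 236278_at, 58.1, 53.5 and 64.8 in treated HSF-6 (8), and 62.3, 55.4 and 62.6 in treated HSF-6 (S9). All treated arrays were above all untreated arrays, and the SD of both treated groups was under 6. In a fit of limma over all 54613 probe sets without the filter, the differences were 0.89 (adjusted p 0.32) and 0.91 (adjusted p 0.225). Its second probe set, 214616_at, had means of 38.2, 41.9 and 75.6 in the same order of groups, and its treated HSF-6 (8) arrays overlapped both other groups.

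H4C8, a replication-dependent H4 gene, read 28.2, 31.3 and 21.2 in untreated cells with probe set 232035_at, 56.9, 69.1 and 68.4 in treated HSF-6 (8), and 72.7, 58.1 and 40.6 in treated HSF-6 (S9). The groups of treated arrays were again above all untreated arrays. The unfiltered differences were 0.92 (adjusted p 0.344 in limma) and 0.75 (adjusted p 0.36). Its second probe set, 208180_s_at, overlapped between groups, with means of 40.2, 61.0 and 55.6. H2BC15 read 6.54, 6.88 and 21.7 in untreated cells, 26.5, 30.0 and 45.6 in treated HSF-6 (8), and 3.80, 11.7 and 6.06 in treated HSF-6 (S9). Its treated groups thus lay apart, with HSF-6 (S9) in or below the untreated range. None of these 3 probe sets was above its array's median on more than 1 array. All 3 were higher in treated than in untreated HSF-6 (8). Between treated HSF-6 (S9) and untreated cells, H3C8, H4C13 and H3C1 had unfiltered differences of -1.43, -1.08 and -0.76. Adjusted p was 0.481, 0.519 and 0.631 in limma. The HSF-6 (S9) arrays of H3C8 and H3C1 were all below the untreated arrays. Of the 46 replication-dependent probe sets, groups in that comparison did not overlap for 8 higher and 3 lower. These are 17.4% and 6.52%, against 6.84% and 7.21% of all probe sets without the filter. For treated against untreated HSF-6 (8) the counts were 6 and 0, or 13% and 0%, against 7.34% and 5.3%.

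Histones of the germline, such as the testis linker histones H1-6 and H1-7 and the oocyte linker histone H1-8, were low, and none of their 8 probe sets passed the filter. H1-6 read 117, 49.5 and 68.0 in untreated cells with probe set 1553568_a_at, and 13.6, 62.0 and 69.4 in treated HSF-6 (8), and these ranges overlapped. H1-7 read 28.6, 30.0 and 88.2 in untreated cells with probe set 236876_at, against 7.57, 7.68 and 9.86 in treated HSF-6 (8) and 8.12, 18.0 and 14.9 in treated HSF-6 (S9). Its treated arrays were all lower, with an unfiltered difference of -1.30 between treated and untreated HSF-6 (8) (adjusted p 0.357 in limma). The other 2 H1-7 probe sets overlapped in that comparison, with differences of 0.10 (238373_at) and 0.40 (238374_at). In treated HSF-6 (S9) the former was below all untreated arrays (-0.15) and the latter overlapped them (0.35). Of the probe sets set apart as no histone genes, that of the pseudogene H2AC5P read 20.5 to 133 over the untreated arrays and 55.6 to 86.6 over treated HSF-6 (8), and the other 3 read under 31 on every array.

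The third array was often the highest of its group for histone probe sets. In treated HSF-6 (8) the third array was the highest of the group for 15 of 17 replication-dependent probe sets, or 88.2%, and for 15 of 20 variant probe sets, or 75%, against 43.1% of all probe sets tested. In treated HSF-6 (S9) these shares were 64.7% and 65% against 35.8%, and in untreated cells 23.5% and 45% against 38.6%. For H2B the third array was the highest for all 7 probe sets in both treated groups and for 2 of 7 in untreated cells. The median of the third array over the mean of the first and second was 1.14 for H2B in treated HSF-6 (8), 0.64 in treated HSF-6 (S9) and 0.01 in untreated cells, on the log2 scale. For H2A genes it was 0.42, -0.12 and -0.93. Several H2B probe sets can bind the same transcripts and are then not separate observations. In treated HSF-6 (8) the third array also carried the high endoderm and stromal sums given above, and the summed signal of the 24 S phase genes was 122747 on it, against 100531 and 99394.5 on the first and second. In untreated cells the S phase sum was 114616 on the third array against 103904 and 105387, and in treated HSF-6 (S9) 110151 against 99529 and 110269. The part of these marker genes in the histone signals was not tested. Differences between groups in how the third array stood were not tested.

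**Figure D4:**
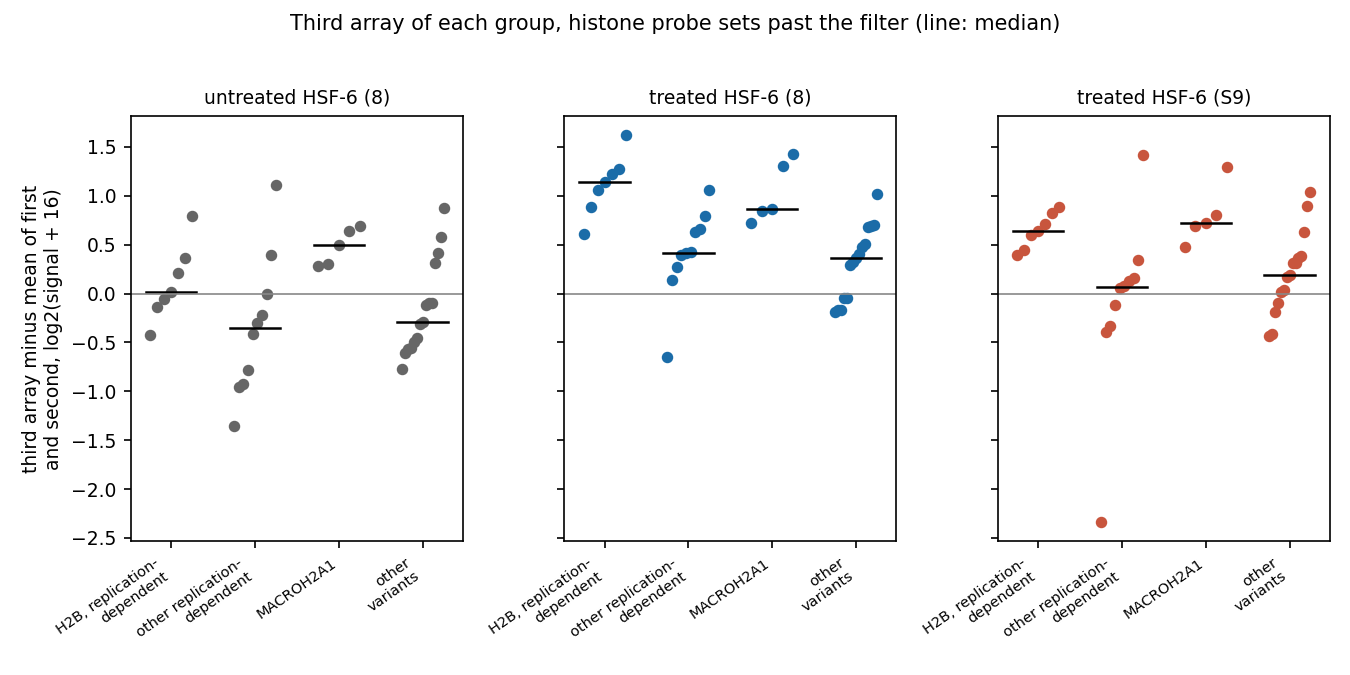
Signal of the third array minus the mean of the first and second array of the same group, on the log2(signal + 16) scale, for the 37 histone probe sets past the filter in 4 classes; points are probe sets and lines are medians. The H2B points lie around 0 in untreated cells (median 0.01) and all above 0 in treated HSF-6 (8) (median 1.14) and treated HSF-6 (S9) (median 0.64), and the MACROH2A1 points are above 0 in all 3 groups.

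Genes that handle histones were read from lists beside the histone genes, with 1 probe set per gene. Over all 13518 genes tested, 0.488% of these probe sets were called between treated and untreated HSF-6 (8), 0% between the treated groups and 0.599% between treated HSF-6 (S9) and untreated cells. Of 33 tested genes for histone chaperones and deposition, 0 were called in any of the 3 comparisons by limma, and 0 had an unadjusted p under 0.05. In the same order of comparisons, 7.52%, 2.43% and 11.3% of all probe sets tested were under that p. CHAF1A, the large subunit of the factor that deposits H3 and H4 behind the replication fork, read 1943 ± 160.2 in untreated and 1643 ± 229 in treated HSF-6 (8), a difference of -0.25 ± 0.18 on the log2 scale. UBN2, a subunit of the HIRA complex that deposits H3.3, read 691 ± 137 and 906 ± 423, a difference of 0.27 ± 0.40. YEATS4, a subunit of the complexes that exchange H2A.Z, differed by -0.53 ± 0.34 between treated HSF-6 (S9) and untreated cells, at 964 ± 412 against 1315 ± 265.

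Of 25 tested genes for histone gene transcription and 3′ end processing, 0 were called in any comparison by limma. At an unadjusted p under 0.05, 2 were higher and 0 lower in treated HSF-6 (8), and 1 was higher and 0 lower in treated HSF-6 (S9), than in untreated cells. Over all probe sets tested, 5.11% were higher and 2.41% lower in the former comparison, and 6% and 5.27% in the latter. LSM11, a part of the U7 particle that cuts histone messages, read 745 ± 110 in untreated and 1053 ± 163 in treated HSF-6 (8), a difference of 0.49 ± 0.21 (adjusted p 0.614 in limma). The other of the 2 was CSTF2T, at 0.45 ± 0.16 (adjusted p 0.466 in limma). LSM10 of the same list differed by -0.23 ± 0.16 in that comparison. CPSF1 read 59.2 ± 46.9 and 11.0 ± 2.84 on a probe set of low signal, a difference of -1.19 ± 0.61. CCNE2, a cyclin that activates histone transcription through CDK2, differed by -0.65 ± 0.37 between treated HSF-6 (S9) and untreated cells. SLBP, which binds the stem loop of histone messages, read 2854 ± 358, 2903 ± 832 and 2668 ± 518 in the 3 groups. NPAT, the coactivator of the histone clusters, read 1098 ± 41.6, 1132 ± 143 and 1117 ± 107. Both stayed within the spread of the arrays.

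Of 24 tested S phase genes, 0 were called in any comparison by limma. At an unadjusted p under 0.05 there was 1 higher in each comparison with untreated cells and 1 lower for treated HSF-6 (S9). Over all probe sets tested, 5.11% were higher and 2.41% lower for treated HSF-6 (8), and 6% and 5.27% for treated HSF-6 (S9). UHRF1, which binds hemimethylated DNA at the fork, read 1850 ± 719 in untreated cells, 4867 ± 2089 in treated HSF-6 (8) and 4365 ± 1070 in treated HSF-6 (S9). Its differences from untreated cells were 1.37 ± 0.35 (adjusted p 0.239) and 1.27 ± 0.35 (adjusted p 0.201) in limma. With the replicate mark as a block UHRF1 was called in both, at adjusted p of 0.0262 and 0.0314. POLA1, the catalytic subunit of DNA polymerase alpha, differed by -0.78 ± 0.27 between treated HSF-6 (S9) and untreated cells (adjusted p 0.296). The summed signal of the S phase list was 103904 to 114616 in untreated arrays, 99394.5 to 122747 in treated HSF-6 (8) and 99529 to 110269 in treated HSF-6 (S9), and the groups overlapped. The list median differed by -0.02 and -0.09 from untreated cells.

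Of the 6 genes of the compounds' targets and related deacetylases, 0 were called in any comparison by limma, and at an unadjusted p under 0.05 AHCY was higher in treated HSF-6 (S9) than in untreated cells. EZH2 differed by 0.40 ± 0.32 between treated and untreated HSF-6 (8), and AHCY, the enzyme that DZNep inhibits, by 0.26 ± 0.23. Between treated HSF-6 (S9) and untreated cells AHCY differed by 0.53 ± 0.23 and HDAC1 by 0.36 ± 0.22, with adjusted p of 0.434 and 0.597 in limma. Among marker lists, GATA3 of the trophoblast list was called higher in both comparisons with untreated cells, by 2.17 ± 0.22 and 2.19 ± 0.22, and PAX3 of the neuroectoderm list was called higher in treated HSF-6 (S9), by 3.34 ± 0.52. No member of the stromal, endoderm or pluripotency lists was called. Of 14 tested pluripotency markers, 0 were higher than in untreated cells at an unadjusted p under 0.05 in limma. Lower at that p were 1 in treated HSF-6 (8) and 3 in treated HSF-6 (S9), with list medians of -0.19 and -0.21. Over all probe sets tested, 2.41% and 5.27% were lower at that p. In the endoderm list, 7 of 10 tested genes had an unadjusted p under 0.05 and were higher in treated than in untreated HSF-6 (8). In treated HSF-6 (S9) 5 of the 10 were higher than in untreated cells at that p. Shares over all probe sets tested were 5.11% and 6%, and the list medians were 1.74 and 1.07.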

How the data were processed

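Total RNA was amplified, labelled with biotin and hybridised to 1 array per sample, per the labels. The deposited table holds intensity values, which the authors made with MAS5 in Affymetrix Expression Console per the submitters' processing notes. They are on a linear scale and each array has a trimmed mean (2% cut at each end) of about 500, so that a shift common to all genes would not show. Read depth does not apply, and the number of arrays limits precision.

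Of 54675 probe sets, 62 controls were left out, 41091 had 1 gene symbol, 1801 several and 11721 none, and 41037 matched RefSeq through the Entrez identifier. Signals were taken as log2(signal + 16), which understates changes of low signals. Probe sets above their own array's median on at least 3 of 9 arrays were kept (29325, of which 24772 with 1 symbol). One model over all 9 arrays was fitted with lmFit and eBayes (limma 3.58.1, R 4.3.3) without covariates, with 6 residual and 3.198 prior degrees of freedom, and p-values were adjusted by Benjamini-Hochberg over all kept probe sets within each comparison. The fit was tested on simulated data.

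Named were all variant genes, every called histone gene, the 3 largest positive and 3 largest negative differences per comparison and the 5 highest means among tested replication-dependent probe sets, other probe sets of these genes, and the 2 largest changes or the called members of each list. Members and lists were chosen with earlier results of these data known. Histone classes were assigned by hand from gene names.

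Replicate numbers come from prime marks in the titles, whose meaning no label gives. Deviations from group means of equally marked arrays correlated at 0.32, 0.28 and 0.59 between the HSF-6 (8) groups, 0.12, 0.20 and 0.54 between untreated HSF-6 (8) and HSF-6 (S9), and 0.27, 0.22 and 0.41 between the treated groups. Arrays of unequal marks reached 0.38. The marks were therefore used as a block in an alternative fit. Alternatives also covered the added constant, the filter, quantile normalization, 1 probe set per gene, variance moderation, the arrays used, the third arrays as a batch and leaving out each array.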

Additional observations from a re-analysis of the deposited data

How the results depend on the processing

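Counts of called probe sets moved with the setting. For treated against untreated HSF-6 (8), 80 were higher and 8 lower. Higher counts became 48 without the filter, 43 with a filter at the 75th percentile, 51 with only the 6 arrays compared, 182 with the third arrays as a batch and 39 on first and second arrays. Lower counts became 5 with 1 added, 5 without the filter, 5 at the 75th percentile, 13 with 1 probe set per gene, 3 with 6 arrays and 32 with the batch. With the replicate block they were 132 and 16. Leaving out 1 array gave 36 to 104 higher and 3 to 12 lower. For treated HSF-6 (S9) against untreated cells, 92 were higher and 22 lower. Higher counts became 53 without the filter, 55 at the 75th percentile, 50 with 6 arrays, 212 with the batch and 39 on first and second arrays. Lower counts became 6 without the filter, 39 with 1 probe set per gene, 12 with 6 arrays, 83 with the batch and 8 on first and second arrays. With the replicate block they were 173 and 60. Leaving out 1 array gave 32 to 103 higher and 3 to 43 lower. Between the treated groups, 1 in place of 0 was higher with 1 added, with quantile normalization and with 1 probe set per gene.

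Called histone probe sets went from 1 to 0 with only the 6 arrays compared and on first and second arrays in both comparisons with untreated cells, without the filter for HSF-6 (8), and in 7 of 9 and 2 of 9 fits that left out 1 array (range 0 to 1). The replicate block changed no call of a histone probe set. Of the alternative values of named histone probe sets, 1996 kept their side of the threshold, 14 lost a call and 0 reversed a called direction. Causes were not tested. The number of arrays, 3 in each group, limits precision, and more so for probe sets below the array median.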
